A study of Mus musculus with 9 samples.

Results

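The genes described here carry out DNA replication and the entry into S phase, the part of the cell cycle in which DNA is copied. They were taken from a list of 46 genes by symbol, and a gene was kept when its symbol named exactly 1 row of the deposited expression table and its mean over 9 libraries was at least 1 FPKM (fragments scaled to transcript length and to the mapped total of the library). That left 35 of the 46, among 6965 genes that met the same condition in the whole table. All 35 genes with a row passed the condition on the mean. The other 11 listed genes have no row in the table used here and say nothing of expression: Mcm5, Pcna, Gins3, Gins4, Rfc1, Prim1, Slbp, E2f1, E2f2, Lig1 and Tk1. Polyadenylated RNA came from ROC6, a murine oral squamous cell cancer line. One group of 3 libraries carried a CSMD3 knockout made with guide 1, another group of 3 a CSMD3 knockout made with guide 2, and the remaining 3 were the WT control of the same line, without the knockout. All groups were grown in the same serum-supplemented medium, and the labels name no further treatment. The design text calls the knockouts clone 1 and clone 2, so a difference between a knockout and the control can also be a difference between a clone and other cells of the line, and these cannot be told apart. The labels do not say whether the control carried the editing enzyme or a guide without a target. The p-values measure the spread between libraries, which may be technical, because the labels do not say that replicates came from separate cultures.

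Replication starts in G1, when the origin recognition complex, Cdc6 and Cdt1 load the ring-shaped MCM helicase onto origins, a step called licensing. At the start of S phase Cdc45 and the GINS complex join the ring and switch it on. Polymerase alpha with primase then lays down primers, the RFC clamp loader places the sliding clamp PCNA on them, and the polymerases delta and epsilon copy the strands. Ribonucleotide reductase and thymidylate synthase supply the nucleotides, and chromatin assembly factor 1 rebuilds nucleosomes behind the fork. Many of these genes are classic targets of the E2F transcription factors, which are released when the retinoblastoma protein is inactivated at the G1/S boundary. In bulk RNA, a change in the share of cells in S phase cannot be told apart from a change in RNA per cell.

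Rows of the table nearly always move alike. In 15441 of 15446 uniquely named rows, and in all 35 genes described here, guide 1 and guide 2 had means both above or both below the control. That the guides share a direction is thus built into the rows and is not read as a result. The name given to the deposited values marks the rows as a shared list of changed genes. The rows were thus probably selected for a change, by a rule that is not known here. Shares of all genes given below are shares of these rows and need not hold for the whole transcriptome. Whether this selection left out the listed genes without a row was not tested. The deletion could not be checked, since CSMD3 was not analysed here. Of 17 squamous keratinocyte markers 9 had a row. The keratins Krt15, Krt16 and Krt17 were at most 0.920, 0.354 and 0.249 FPKM in any library, while Perp, an epithelial junction protein, had means of 79.1, 105 and 83.4 FPKM in control, guide 1 and guide 2. Krt5, Krt14 and Trp63, the defining markers of squamous basal cells, have no row in the table used here, which says nothing of their expression. Of 9 fibroblast markers 3 had a row, and Col1a2 was at 0.0139, 0.0307 and 0.827 FPKM in the same order, Postn at 1.30, 1.61 and 7.83 and Twist2 at 2.51, 9.25 and 5.60. Of 6 leukocyte markers 2 had a row, Cd68 at 0.652, 1.35 and 2.16 FPKM and Lyz2 at 0, 0.0231 and 0.123. The only endothelial marker of 4 with a row, Kdr, was at 0.00501, 0.667 and 0.0569 FPKM. The part of these genes in the values below was not tested.

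The knockouts did not move the replication genes as a block. With guide 1, 16 of the 35 rose and 9 fell, and with guide 2, 19 rose and 6 fell (limma adjusted p under 0.05). Over all 6965 genes, 30.2% rose and 37.9% fell with guide 1, and 31.9% rose and 33.5% fell with guide 2. The shares among the replication genes were 45.7% higher and 25.7% lower with guide 1, and 54.3% higher and 17.1% lower with guide 2. The total called, 71.4% for each guide, lay close to the 68.1% and 65.4% of all genes. The number of changed genes was thus near that of the probably selected rows, while its split leaned to higher values. How it compares with unselected genes was not tested. The median log2 difference of the 35 was 0.11 with guide 1 and 0.23 with guide 2, beside -0.04 and -0.03 over all genes. Both guides had the same 14 genes higher and the same 4 lower, 7 genes passed with guide 1 alone, 7 with guide 2 alone, and 3 with neither. Over all genes, 22.6% were called higher and 26.2% lower with both guides, and 15.3% with neither.

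The changes were small. With guide 1, 2 of the 35 genes differed from the control by at least 1 log2 unit, with guide 2 none did (the largest was 0.85, for Rfc4), and 19 differed by less than 0.5 with either guide. In the mean of both guides against control 32 of the 35 were called, 21 higher and 11 lower, where 81.1% of all genes were called, 37.8% higher and 43.3% lower. A fit that took the 6 knockout libraries as 1 group, in which differences between the clones add to the spread, called 17, of which 14 were higher and 3 lower. The share of all genes called by that fit is not given here. How its counts compare with all genes was not tested. The guide 1 libraries lay wholly above the control in 17 genes and wholly below it in 10 (32.3% and 39.7% of all genes), and the guide 2 libraries in 20 and 6 (33.1% and 35.5%). All 6 knockout libraries lay above the control in 15 genes and below it in 5 (24.7% and 29.0% of all genes).

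**Figure D1:**
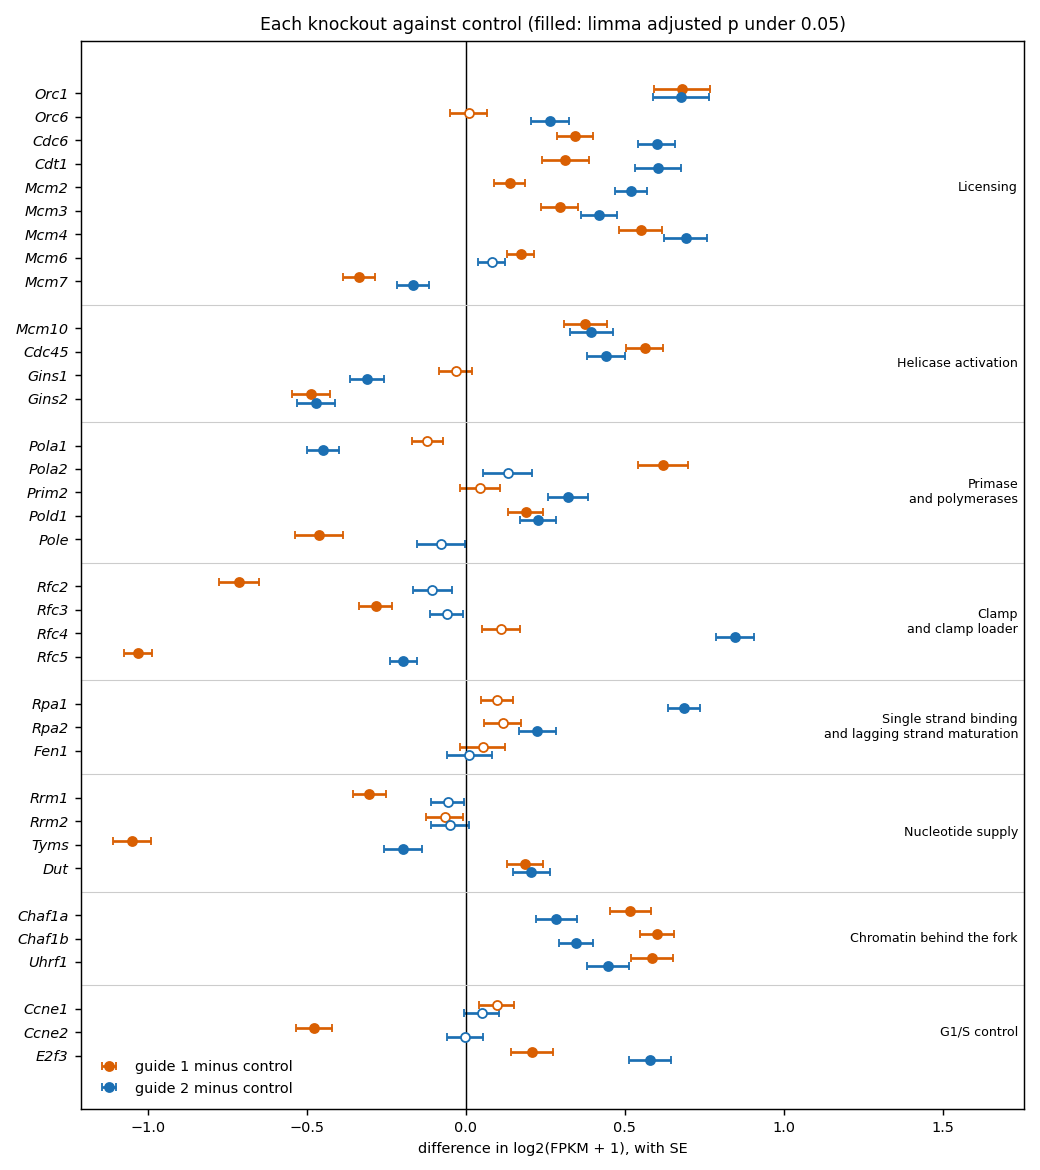
Difference from the control in log2(FPKM + 1) for the 35 genes, ordered by replication step, with guide 1 in orange and guide 2 in blue. Bars are standard errors of the limma fit and filled points have an adjusted p under 0.05. Licensing and chromatin assembly genes lie mostly to the right with both guides, while Rfc5 and Tyms lie near -1 with guide 1 and near -0.20 with guide 2.

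Of the 9 licensing genes with a row, 7 rose and 1 fell with guide 1 (30.2% and 37.9% of all genes). With guide 2, 7 rose and 1 fell (31.9% and 33.5% of all genes). In the control, Orc1, the largest subunit of the origin recognition complex, read 3.05, 3.40 and 3.88 FPKM, against 5.50, 6.60 and 6.24 in guide 1 libraries and 5.58, 6.04 and 6.67 in guide 2 libraries. Every knockout library lay above every control library, and the groups of the 2 guides overlapped. The log2 difference was 0.68 with each guide (SE 0.0889, limma adjusted p = 5.9e-05 and 7.23e-05). Gm12743, on the opposite strand, overlaps 10.8% of the annotated Orc1 exon bases and was not among the tested genes. Mcm4, a subunit of the helicase ring, read 54.7, 50.04 and 57.1 FPKM in control libraries, 85.1, 72.1 and 81.5 in guide 1 libraries and 86.6, 86.6 and 89.8 in guide 2 libraries. Here, too, no knockout library reached down to the control, and the mean was 1.47 times the control with guide 1 and 1.62 times with guide 2 (limma adjusted p = 3.45e-05 and 7.71e-06).

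The loading factors Cdc6 and Cdt1 rose more with guide 2 than with guide 1. Cdc6, the ATPase that recruits the ring, read 7.26, 6.77 and 7.81 FPKM in control libraries, 9.83, 9.37 and 9.28 in guide 1 libraries and 11.1, 11.7 and 11.8 in guide 2 libraries. Cdt1, which brings MCM to Cdc6 and is held in check by geminin, read 29.8, 26.7 and 32.9 FPKM in control libraries, 38.5, 34.8 and 38.2 in guide 1 libraries and 43.4, 46.5 and 47.1 in guide 2 libraries. In both genes the 3 groups were fully separated, in the order control, guide 1, guide 2. The difference between guides was 0.26 log2 units for Cdc6 and 0.29 for Cdt1 (SE 0.0578 and 0.0735, limma adjusted p = 0.00351 and 0.00674). Mcm2, another subunit of the ring, read 35.9, 34.9 and 39.1 FPKM in control libraries, 41.3, 39.2 and 40.6 in guide 1 libraries and 51.4, 53.4 and 53.8 in guide 2 libraries. The rise of 0.14 log2 units with guide 1 did not pass without control replicate 1 or 2 or without guide 1 replicate 1 or 3, where the limma adjusted p lay between 0.077 and 0.122, nor in a fit of these 6 libraries alone (limma adjusted p = 0.0525). The rise of 0.52 with guide 2 had a limma adjusted p of 7.4e-06.

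The remaining licensing genes did not all follow. Mcm3 rose from 66.4 ± 5.29 FPKM (SD, n = 3, as for all values with ± below) to 81.6 ± 2.98 with guide 1 and 89.0 ± 1.68 with guide 2. Mcm6 stood at 62.6 ± 3.08, 70.7 ± 0.375 and 66.3 ± 0.798 FPKM in the same order, called with guide 1 (limma adjusted p = 0.00512) but not with guide 2 (limma adjusted p = 0.127, or 0.0442 after quantile normalization). Orc6, the smallest subunit of the origin complex, was at 29.0 ± 2.05, 29.2 ± 0.769 and 35.01 ± 1.83 FPKM and rose with guide 2 alone. Vps35, on the opposite strand, overlaps 6.93% of the annotated Orc6 exon bases. It differed from the control by -0.53 and -0.0089 log2 units with guide 1 and guide 2. The part of Vps35 in the value of Orc6 was not tested. Mcm7 was the exception among the ring subunits and fell, from 86.4 ± 5.69 FPKM in the control to 68.2 ± 0.820 in guide 1 and 76.8 ± 1.23 in guide 2 (limma adjusted p = 0.000142 and 0.013). After quantile normalization the difference with guide 2 was -0.14 and did not pass (limma adjusted p = 0.0502). Its exons share bases with Cops6 and Ap4m1 on the opposite strand in the GENCODE annotation of GRCm38, 1.45% and 7.25% of its exon bases. Cops6 differed from the control by -0.76 and -0.39 log2 units with guide 1 and guide 2, and Ap4m1 by -0.40 and -0.22. The part of these neighbours in the value of Mcm7 was not tested.

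Promoters of some licensing genes are shown because E2F sites are a textbook feature of genes of this step. Those of Pola1, a polymerase gene, and Rfc5, a clamp loader gene, are shown beside them. Windows from 250 bases before to 50 bases after the transcription start were matched by symbol in RefSeq (GRCm38.p6) for 28 of the 35 genes. They were searched on both strands for the E2F consensus, spelled TTTCCCGC, TTTCGCGC, TTTGCCGC or TTTGGCGC. A match was found for 11 of the 28 genes (39.3%), against 2.61% of 27025 genes with a window and 5.11% of the 4971 tested genes with a window. Among the 8 licensing genes with a window 6 had a match. The CCAAT box was found for 17 of the 28 (60.7%, against 41.1% of all and 42.4% of tested genes with a window). The CHR element TTTGAA, a mark of late cell cycle genes, was found for 4 (14.3%, against 20.2% of all and 13.9% of tested genes with a window). A match is a description of letters and does not show binding. The 180 bases before the start follow for 6 genes, 5′ to 3′ on the gene's strand, with E2F matches in capitals:
Orc1, chr4:108579274-108579453, plus strand: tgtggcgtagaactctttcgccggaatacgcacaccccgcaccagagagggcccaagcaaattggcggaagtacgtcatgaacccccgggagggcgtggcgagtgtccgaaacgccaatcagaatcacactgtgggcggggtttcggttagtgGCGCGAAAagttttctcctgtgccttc
Cdc6, chr11:98907971-98908150, plus strand: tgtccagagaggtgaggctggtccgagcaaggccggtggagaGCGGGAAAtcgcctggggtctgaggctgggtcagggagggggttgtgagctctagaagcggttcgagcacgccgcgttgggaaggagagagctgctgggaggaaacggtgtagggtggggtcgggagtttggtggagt
Mcm6, chr1:128359706-128359885, minus strand: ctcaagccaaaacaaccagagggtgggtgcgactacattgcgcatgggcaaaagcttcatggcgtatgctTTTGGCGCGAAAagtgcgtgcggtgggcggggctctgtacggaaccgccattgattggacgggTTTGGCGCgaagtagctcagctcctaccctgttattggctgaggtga
Mcm7, chr5:138171884-138172063, minus strand: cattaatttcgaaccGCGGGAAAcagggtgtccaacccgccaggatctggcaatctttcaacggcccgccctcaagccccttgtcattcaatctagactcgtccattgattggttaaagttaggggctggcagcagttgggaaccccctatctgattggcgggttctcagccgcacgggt
Pola1, chrX:93632156-93632335, minus strand: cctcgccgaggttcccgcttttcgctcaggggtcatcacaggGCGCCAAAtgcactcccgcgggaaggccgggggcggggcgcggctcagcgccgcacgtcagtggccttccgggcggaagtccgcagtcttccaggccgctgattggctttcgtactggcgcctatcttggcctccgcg
Rfc5, chr5:117389024-117389203, minus strand: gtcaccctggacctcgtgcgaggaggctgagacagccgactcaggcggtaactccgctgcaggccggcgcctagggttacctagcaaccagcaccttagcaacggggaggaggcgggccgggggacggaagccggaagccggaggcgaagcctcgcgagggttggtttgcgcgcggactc

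Positions are those of the first base of a match, counted from the transcription start. For the printed genes, bases just after this start were looked for near the beginning of GENCODE transcripts. They were found for Orc1, Cdc6, Pola1 and Rfc5 but not for Mcm6 and Mcm7, whose distances are therefore uncertain. Among genes that rose with both guides, Orc1 has a match 27 bases before the start, Cdc6 138, Uhrf1 185 and E2f3 11 before it, Cdt1 has one 32 and Pold1 one 39 bases after it, and Mcm3 has matches 19 and 38 bases after it. Mcm6, which rose with guide 1, has matches 110, 106 and 47 bases before the start, where the first 2 lie on opposite strands and overlap. Among genes that fell, Mcm7 has a match 165 bases before and another 16 bases after the start, the latter outside the printed stretch. Uhrf1, E2f3 and Mcm7 each have 2 windows with separate starts, and their matches lie in only 1 of them. Rfc3, which fell with guide 1, has matches 10 bases before the start and at the start itself, and Pola1, which fell with guide 2, has a match 138 bases before it. Rfc5, among the genes that fell most with guide 1, has no match in its window, and neither has Tyms. Among genes with a window, a match was present for 8 of 15 that rose and 2 of 5 that fell with guide 1, and for 7 of 17 that rose and 2 of 4 that fell with guide 2. Genes that rose and genes that fell thus both included promoters with the consensus.

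Helicase activation split within the step. Cdc45, which joins the ring to form the active helicase, read 14.8, 13.8 and 15.9 FPKM in control libraries, 23.4, 21.2 and 22.6 in guide 1 libraries and 19.9, 20.7 and 20.9 in guide 2 libraries. All knockout libraries lay above the control (log2 differences 0.56 and 0.44, SE 0.0596 each, limma adjusted p = 1.23e-05 and 8.79e-05). Its exons share 5.96% of their bases with Ufd1 on the opposite strand, and Ufd1 differed from the control by 0.59 and 0.28 log2 units, whose part in the value of Cdc45 was not tested. Mcm10, a scaffold that helps the helicase start, rose from 6.71 ± 0.762 FPKM to 8.98 ± 0.106 and 9.11 ± 0.218. The GINS subunits went the other way. Gins2 fell from 14.9 ± 0.582 FPKM in the control to 10.4 ± 0.505 in guide 1 and 10.5 ± 0.694 in guide 2 (limma adjusted p = 3.56e-05 and 5.46e-05). Gins1 fell with guide 2, from 16.6 ± 0.473 to 13.2 ± 0.785 FPKM, and was at 16.2 ± 0.440 with guide 1 (limma adjusted p = 0.601). Gins2 shares 67.3% of its annotated exon bases with Gse1 on the opposite strand, at 2.89, 2.19 and 1.86 FPKM in control, guide 1 and guide 2, so its level is uncertain where counting did not use strand.

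The polymerase genes also differed from each other and between guides. Pola2, the regulatory subunit of polymerase alpha, read 7.40, 7.34 and 9.003 FPKM in control libraries, 12.2, 12.7 and 13.1 in guide 1 libraries and 9.10, 8.02 and 9.12 in guide 2 libraries. Guide 1 stood apart, and the guide 2 libraries overlapped the control (log2 differences 0.62 and 0.13, SE 0.0782 each, limma adjusted p = 4.42e-05 and 0.163). Without control replicate 3, the highest of the 3, the difference with guide 2 was 0.22 and passed (limma adjusted p = 0.0155). Pola1, the catalytic subunit of the same enzyme, fell with guide 2, from 7.80 ± 0.257 to 5.45 ± 0.219 FPKM. With guide 1 it was at 7.09 ± 0.0890 FPKM (limma adjusted p = 0.0522). That difference, -0.12 log2 units, passed without a filter, with a constant prior variance and without guide 2 replicate 1 (limma adjusted p = 0.0403, 0.0469 and 0.0486). The primase subunit Prim2 rose with guide 2 alone, from 8.04 ± 0.599 to 10.3 ± 0.116 FPKM, and was at 8.32 ± 0.570 with guide 1. Pole, the catalytic subunit of the leading strand polymerase, fell with guide 1 alone, from 10.6 ± 0.984 to 7.38 ± 0.347 FPKM, and was at 9.95 ± 0.794 with guide 2. Pold1, its counterpart on the lagging strand, rose with both guides, from 20.7 ± 0.894 to 23.8 ± 0.850 and 24.5 ± 1.499 FPKM.

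All 4 clamp loader genes with a row differed between the knockouts, as did 54.5% of all genes. The small subunits of the loader, Rfc2, Rfc3, Rfc4 and Rfc5, form, with Rfc1, the ATPase ring that opens the clamp. Rfc5 read 34.0, 32.8 and 33.7 FPKM in control libraries, 16.1, 15.7 and 15.8 in guide 1 libraries and 29.9, 27.9 and 29.5 in guide 2 libraries. The 3 groups were fully separated, and guide 1 was at 0.474 of the control level and guide 2 at 0.869 (log2 differences -1.03 and -0.20, SE 0.0433 each, limma adjusted p = 1.17e-08 and 0.00242). Rfc4 showed the reverse arrangement, with 22.9, 22.2 and 25.4 FPKM in the control, 26.2, 24.98 and 25.1 with guide 1 and 43.8, 44.7 and 40.6 with guide 2. Guide 2 stood at 1.83 times the control (log2 difference 0.85, SE 0.059, limma adjusted p = 6.48e-07), and guide 1 overlapped the control (limma adjusted p = 0.118, or 0.0463 after trimmed mean rescaling and 0.020 without control replicate 3). Rfc2 read 19.2, 18.7 and 20.9 FPKM in control libraries, 11.9, 11.3 and 11.4 in guide 1 libraries and 18.9, 18.9 and 16.7 in guide 2 libraries, so that guide 1 lay below all other libraries. Its log2 difference was -0.71 with guide 1 and -0.11 with guide 2 (limma adjusted p = 2.72e-06 and 0.157). Rfc3 fell with guide 1, from 18.2 ± 0.630 to 14.7 ± 0.601 FPKM, and was at 17.4 ± 0.807 with guide 2. Each of Rfc2, Rfc4 and Rfc5 shares exon bases with a gene on the opposite strand, namely Lat2 (15.1% of the Rfc2 exon bases), Eif4a2 (12.7% of Rfc4) and Wsb2 (10.7% of Rfc5). Eif4a2 differed from the control by 0.51 and 0.28 log2 units with guide 1 and guide 2, and Wsb2 by -0.11 and -0.81. Lat2 was not among the tested genes. The part of these neighbours in the values of Rfc2, Rfc4 and Rfc5 was not tested.

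**Figure D2:**
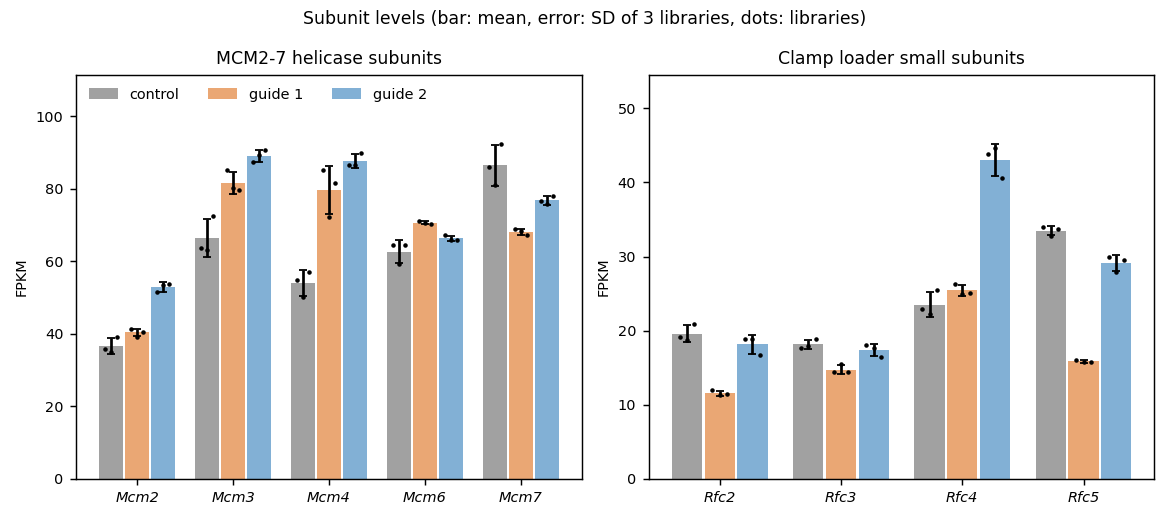
FPKM of 5 MCM ring subunits and 4 clamp loader subunits in control (grey), guide 1 (orange) and guide 2 (blue), with bars for the mean, error bars for the SD of 3 libraries and dots for the libraries. Mcm7 is the highest ring subunit in the control and lies below Mcm3 and Mcm4 in both knockouts, and Rfc5 exceeds Rfc4 in the control alone.

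Because FPKM is scaled to transcript length, subunits can be set beside each other. In the control the ring subunits ranked Mcm7, Mcm3, Mcm6, Mcm4, Mcm2, from 86.4 down to 36.6 FPKM. With guide 1 the order was Mcm3, Mcm4, Mcm6, Mcm7, Mcm2, from 81.6 to 40.3, and with guide 2 Mcm3, Mcm4, Mcm7, Mcm6, Mcm2, from 89.0 to 52.9. Neighbours in these orders often lay within the spread of their libraries, such as Mcm3 and Mcm6 in the control and Mcm3 and Mcm4 in each knockout. A ratio of 2 genes within a library does not depend on how libraries are scaled, and 4 such ratios were formed after the values had been seen. Mcm7 over Mcm4 was 1.57, 1.62 and 1.62 in the control libraries, 0.810, 0.947 and 0.826 with guide 1 and 0.885, 0.874 and 0.870 with guide 2. Rfc5 over Rfc4 was 1.48, 1.48 and 1.33 in the control, 0.613, 0.629 and 0.630 with guide 1 and 0.683, 0.623 and 0.726 with guide 2. The ratio was thus lower in every knockout library, through a lower Rfc5 with guide 1 and a higher Rfc4 with guide 2. Gins2 over Cdc45 went from 1.01 ± 0.0650 in the control to 0.465 ± 0.0455 and 0.513 ± 0.0383, and Pola1 over Pola2 from 0.993 ± 0.0959 to 0.560 ± 0.0129 and 0.625 ± 0.0449. Since these pairs were picked for their difference, the ratios are a description and carry no test.

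Among the genes of single-stranded DNA and of lagging strand maturation, none of 3 was called with guide 1, and 2 rose with guide 2. Over all genes, 68.1% were called with guide 1 and 31.9% rose with guide 2. Rpa1, the large subunit of the complex that coats single-stranded DNA, read 29.7, 27.5 and 30.03 FPKM in control libraries, 31.9, 29.6 and 32.0 in guide 1 libraries and 47.7, 46.4 and 48.0 in guide 2 libraries. Guide 2 lay above all other libraries (log2 difference 0.69, SE 0.0504, limma adjusted p = 9.51e-07), while guide 1 overlapped the control (limma adjusted p = 0.106). Rpa2, its partner subunit, rose with guide 2, from 16.9 ± 1.30 to 19.9 ± 0.658 FPKM, and was at 18.4 ± 0.581 with guide 1 (limma adjusted p = 0.101). After quantile normalization Rpa1 and Rpa2 passed with guide 1 as well, at a limma adjusted p of 0.0103 and 0.0421. Fen1, the nuclease that trims Okazaki flaps, was at 46.1 ± 4.80, 47.7 ± 1.91 and 46.2 ± 1.64 FPKM in control, guide 1 and guide 2 and was not called in any comparison. An antisense gene covers 78.8% of its annotated exon bases.

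In nucleotide supply, thymidylate synthase was the gene that differed most. Tyms, which makes thymidylate and is the target of fluorouracil, read 27.2, 26.0 and 26.7 FPKM in control libraries, 13.2, 12.5 and 11.5 in guide 1 libraries and 24.3, 23.3 and 21.8 in guide 2 libraries. The groups were fully separated, at 0.464 of the control level with guide 1 and 0.868 with guide 2 (log2 differences -1.05 and -0.20, SE 0.0591 each, limma adjusted p = 1.03e-07 and 0.0136). Without guide 2 replicate 3, the lowest of that group, the difference with guide 2 was -0.16 and did not pass (limma adjusted p = 0.0573). The annotation holds a pseudogene, Tyms-ps, whose reads could be divided with Tyms. Rrm1, the large subunit of ribonucleotide reductase, fell with guide 1 alone, from 40.0 ± 1.75 to 32.2 ± 1.67 FPKM, and was at 38.4 ± 1.04 with guide 2. Rrm2, the S phase subunit of the same enzyme, was at 76.9 ± 5.33, 73.3 ± 2.04 and 74.2 ± 4.11 FPKM and was not called in any comparison. Dut, which keeps uracil out of DNA, rose from 43.7 ± 1.25 FPKM to 49.9 ± 2.21 and 50.7 ± 3.69, and its call with guide 1 (limma adjusted p = 0.015) was lost without guide 1 replicate 1 (limma adjusted p = 0.0603).

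All 3 genes of chromatin behind the fork with a row rose with both guides, as did 22.6% of all genes. Chaf1b, the middle subunit of chromatin assembly factor 1, read 7.57, 7.54 and 8.17 FPKM in control libraries, 12.8, 11.8 and 12.3 in guide 1 libraries and 9.73, 10.5 and 10.2 in guide 2 libraries. Chaf1a, the large subunit, read 16.4, 16.7 and 19.5 FPKM in control libraries, 26.5, 25.4 and 24.5 in guide 1 libraries and 21.8, 21.3 and 21.4 in guide 2 libraries. In both, the order control, guide 2, guide 1 held without overlap, and guide 2 lay below guide 1 by 0.25 log2 units in Chaf1b and 0.23 in Chaf1a (limma adjusted p = 0.00243 and 0.0109). Chaf1a shares 52.5% of its annotated exon bases with Ubxn6 on the opposite strand. Uhrf1, which guides DNA methylation onto new strands, read 53.1, 48.8 and 58.6 FPKM in control libraries, 82.7, 78.7 and 80.1 in guide 1 libraries and 69.1, 73.05 and 77.3 in guide 2 libraries. All 6 knockout libraries were above the control (log2 differences 0.59 and 0.45, SE 0.0668 each, limma adjusted p = 2.14e-05 and 0.000183).

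Of the G1/S regulators, E2f3, an activator E2F, read 6.46, 6.18 and 6.92 FPKM in control libraries, 8.01, 7.43 and 7.63 in guide 1 libraries and 9.46, 10.1 and 11.2 in guide 2 libraries. The 3 groups did not overlap, with log2 differences of 0.21 and 0.58 (SE 0.066 each, limma adjusted p = 0.0163 and 2.53e-05). The call with guide 1 was lost without guide 1 replicate 1 or control replicate 2 (limma adjusted p = 0.0591 and 0.0633). The cyclins E, which activate the kinase Cdk2 at the G1/S boundary, went separate ways. Ccne2 fell with guide 1, from 12.3 ± 0.377 to 8.53 ± 0.672 FPKM (log2 difference -0.48, limma adjusted p = 3.05e-05), and was at 12.2 ± 0.209 with guide 2 (limma adjusted p = 0.976). Ints8, on the opposite strand, overlaps 17.4% of the Ccne2 exon bases and differed from the control by -0.15 and -0.35 log2 units with guide 1 and guide 2, and its part in the value of Ccne2 was not tested. Ccne1 was at 18.9 ± 0.476, 20.3 ± 1.20 and 19.6 ± 1.01 FPKM in control, guide 1 and guide 2. It was not called, except with guide 1 after trimmed mean rescaling or quantile normalization (limma adjusted p = 0.0379 and 0.0362).

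**Figure D3:**
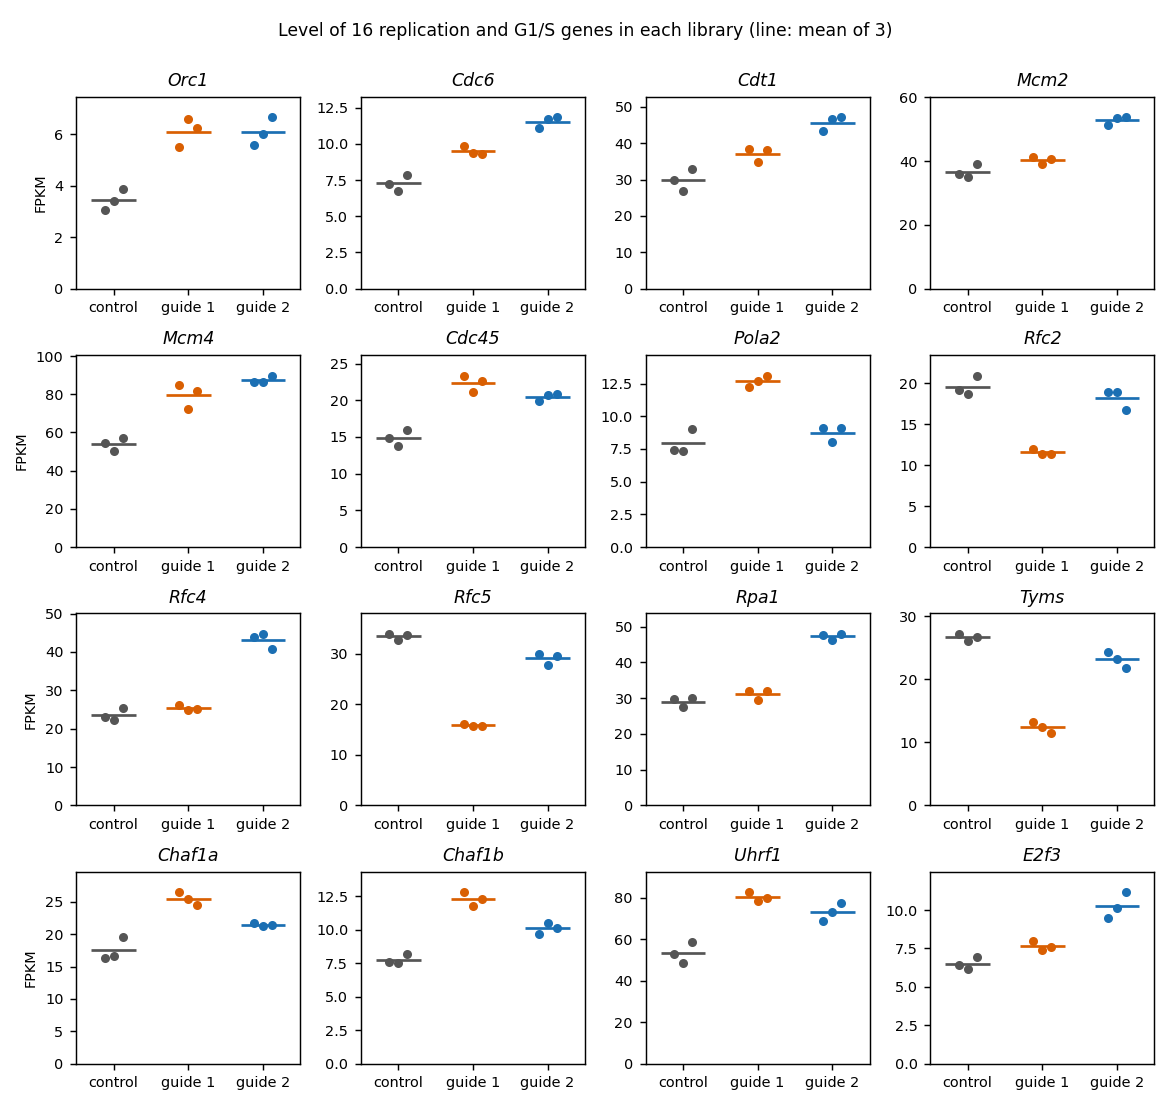
FPKM in each library of the 16 genes that passed 0.5 log2 units in a called comparison or led their step, with 3 points and a line at the mean for control (grey), guide 1 (orange) and guide 2 (blue); each axis starts at 0. Orc1, Mcm4, Cdc45 and Uhrf1 are higher in all 6 knockout libraries, Rfc2, Rfc5 and Tyms are low with guide 1, and Rfc4 and Rpa1 are high with guide 2.

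Guide 2 was also tested against guide 1 directly, in the same fit, where the control libraries enter only the estimate of the spread. The knockouts differed in 21 of the 35 genes, 16 higher with guide 2 and 5 lower. Over all genes 54.5% differed, 31.2% higher and 23.3% lower, and the share of the 35 was 60.0%. The libraries of the guides did not overlap in 19 genes higher and 8 lower with guide 2 (34.8% and 26.6% of all genes). All 4 clamp loader genes were higher with guide 2, by 0.83 log2 units in Rfc5, 0.74 in Rfc4, 0.61 in Rfc2 and 0.22 in Rfc3 (limma adjusted p = 1.4e-07, 3.12e-06, 1.7e-05 and 0.00433). Tyms and Rpa1 were higher by 0.85 and 0.59, and Ccne2, Pole, Mcm2 and E2f3 by 0.48, 0.38, 0.38 and 0.37. The genes lower with guide 2 were Pola2, Pola1, Gins1, Chaf1b and Chaf1a, with differences of -0.49, -0.33, -0.28, -0.25 and -0.23. Orc1, Mcm10, Gins2, Rrm2 and Dut lay within 0.02 log2 units of each other, with standard errors between 0.0577 and 0.0889. The median difference of the 35 was 0.12, beside 0.04 over all genes. In a fit without the control libraries, Mcm3 and Uhrf1 passed as well (limma adjusted p = 0.0345 and 0.0473).

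**Figure D4:**
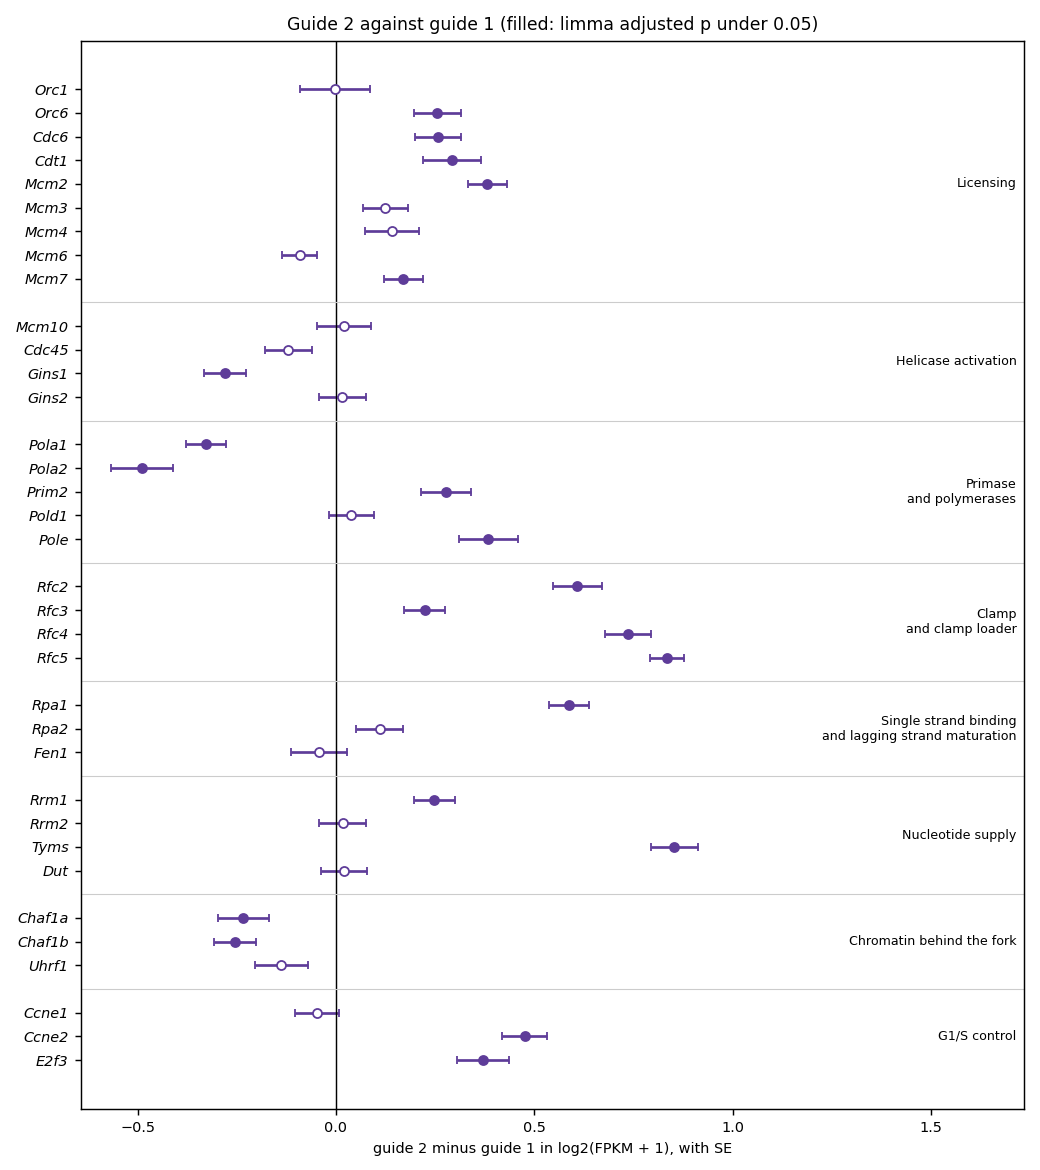
Guide 2 minus guide 1 in log2(FPKM + 1) for the 35 genes by replication step, with standard errors of the limma fit and filled points at an adjusted p under 0.05. The clamp loader genes, Rpa1 and Tyms reach 0.22 to 0.85 on the side of guide 2, and the polymerase alpha and chromatin assembly genes lie on the side of guide 1.

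Other genes of replication and the G1/S boundary were read from a list of 72, of which 40 had a row and were tested. With guide 1, 10 rose and 15 fell (25% and 37.5%, against 30.2% and 37.9% of all genes), and with guide 2, 22 rose and 10 fell (55% and 25%, against 31.9% and 33.5%). Between the guides 20 were higher with guide 2 and 4 lower (50% and 10%, against 31.2% and 23.3%). Large increases in the mean of both guides were in Recql4, a helicase of origin firing, and Donson, a factor of helicase assembly. Recql4 stood at 4.70 ± 0.914 FPKM in the control, 5.71 ± 0.580 with guide 1 (limma adjusted p = 0.106) and 11.0 ± 1.55 with guide 2 (limma adjusted p = 2.96e-05). Donson rose from 3.85 ± 0.260 to 5.43 ± 0.503 and 7.78 ± 0.316 FPKM. The largest decreases were in Rb1, the retinoblastoma protein that restrains E2F, Samhd1, which degrades deoxynucleotides, and Lin54, a DNA-binding subunit of the MuvB complex. Rb1 fell from 6.10 ± 0.758 FPKM to 2.77 ± 0.364 and 4.09 ± 0.593, Samhd1 from 24.5 ± 0.970 to 16.3 ± 0.233 and 14.1 ± 0.226, and Lin54 from 15.1 ± 0.460 to 8.39 ± 0.465 and 10.5 ± 1.20.

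Mitosis genes, the other wave of cell cycle expression, were read beside them. Of 30 listed, 11 had a row and were tested. With guide 1, 1 rose and 9 fell (9.09% and 81.8%, against 30.2% and 37.9% of all genes), and with guide 2, 1 rose and 6 fell (9.09% and 54.5%, against 31.9% and 33.5%). The median log2 difference was -0.36 with guide 1 and -0.15 with guide 2, beside -0.04 and -0.03 over all genes. Cenpa, the centromeric histone, fell from 30.8 ± 3.27 FPKM to 16.6 ± 0.781 and 26.8 ± 1.09, and Kif11, the spindle motor, from 32.8 ± 1.61 to 21.5 ± 1.54 and 26.9 ± 1.69. Kif23, a motor of cytokinesis, rose from 12.6 ± 0.721 FPKM to 15.3 ± 0.622 and 15.6 ± 0.669. Mki67, the usual marker of cycling cells, has no row in the table used here, which says nothing of its expression. The difference between the replication and the mitosis genes was not tested.

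The control libraries were not alike in the genes described here. Control replicate 3 held the highest of the 3 control values in 31 of the 35 genes and control replicate 2 the lowest in 27, while over all tested genes these shares were 35.4% and 34.9%. The median deviation of the 35 genes from their control mean was 0.09 log2 units in replicate 3 and -0.06 in replicate 2, against -0.0058 and -0.0079 over all genes. Without control replicate 3, 18 genes rose and 9 fell with guide 1 and 20 rose and 6 fell with guide 2. Without control replicate 2 these counts were 14 and 9 with guide 1, and 19 and 6 with guide 2. Shares of all genes called in these fits are not given here, so how the counts compare with all genes was not tested. The 35 genes therefore do not vary independently between libraries, and their counts are not counts of independent events. The number of reads behind each value is not known, since no counts were used. Library sums over uniquely named genes were 162625 to 168620 FPKM. The SD within a group was at most 12.1% of the mean for any of the 35 genes, with a median of 4.43%.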

How the data were processed

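RNA from 9 ROC6 libraries was prepared as stranded poly(A) paired-end libraries, per the labels' protocols. Each deposited value is an FPKM of a gene in a library, per the file headers. Tools in the submitters' processing notes are HISAT2, StringTie, cutadapt and FastQC. For their versions, the genome build, the annotation and the use of strand in counting, the sources used here give nothing. Groups and replicate numbers came from sample titles. Of 15620 rows, 174 that share a symbol were left out, as were 8481 of the remaining 15446 with a mean under 1 FPKM.

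Values were analysed as log2(FPKM + 1), on which fold changes of low genes are understated. All 9 libraries entered a linear model in limma 3.58.1 (R 4.3.3) with a mean-dependent prior variance, from which 4 comparisons were taken, and p-values were Benjamini-Hochberg adjusted over 6965 genes. The script was tested on simulated data. No pair of libraries held identical values. The genes described, their steps and the other lists were chosen with earlier results of these data known. Every gene with a row is named. Library values are printed for genes called in any comparison with a difference of at least 0.5 log2 units and for the largest difference in each step. From the other lists, the 3 largest called in each direction are named for replication and the 2 largest for mitosis; 1 gene so chosen is not reported here. The alternatives changed the pseudocount (0.1), the filter (none, or 5 FPKM), the scaling (quantile normalization, or log2 means trimmed by 30% at each end), the prior variance (constant) and the samples (a replicate block, the compared libraries alone, each library left out, or the 6 knockout libraries as 1 group). Promoters came from RefSeq (GRCm38.p6) and exon overlap from GENCODE (GRCm38), by symbol. Neither build is known to be the authors'.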

Additional observations from a re-analysis of the deposited data

Results flagged for a closer look

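The effect against the same control differed between the knockouts in 21 of the 35 genes, by the limma test of guide 2 against guide 1. The log2 difference of guide 2 minus guide 1 was 0.26 in Orc6, 0.26 in Cdc6, 0.29 in Cdt1, 0.38 in Mcm2 and 0.17 in Mcm7 among licensing genes. It was -0.28 in Gins1, -0.33 in Pola1, -0.49 in Pola2, 0.28 in Prim2 and 0.38 in Pole. In the clamp loader it was 0.61 in Rfc2, 0.22 in Rfc3, 0.74 in Rfc4 and 0.83 in Rfc5. The others were 0.59 in Rpa1, 0.25 in Rrm1, 0.85 in Tyms, -0.23 in Chaf1a, -0.25 in Chaf1b, 0.48 in Ccne2 and 0.37 in E2f3. Over all tested genes 54.5% differed between the guides, so the count alone is near that of the rows at large, which were probably selected for a change. Groups of 3 libraries are too small for the check of outlying samples.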

How the results depend on the processing

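Over 2380 values of single genes under alternatives, none turned its direction in a call, 2320 kept direction and side of the threshold, 36 no longer passed and 24 passed only in the alternative. Of the 36, 15 came from fitting the 6 knockout libraries as 1 group, where 17 of the 35 genes were called instead of 32, and 3 were lower instead of 11; there the difference between clones enters the spread. Leaving out 1 library gave between 29 and 32 calls for the mean of both guides, 22 and 27 for guide 1, 24 and 26 for guide 2, and 21 and 23 between guides. Other alternatives kept every count within 1.5 times. Shares of all genes called under the alternatives are not given here, so these counts cannot be set beside them. Trimmed mean rescaling gave 29 calls with guide 1, 20 higher and 9 lower. Same-numbered libraries had correlations of their deviations between -0.107 and 0.245. Between guide 1 and guide 2 these were 0.245, 0.0219 and 0.210 for replicates 1, 2 and 3. Guide 1 and guide 2 libraries of unlike number lay between -0.234 and 0.0423. Same-numbered knockout and control libraries lay between -0.107 and 0.0556. Whether the numbers pair the samples was not tested. With the replicate block 31, 25, 25 and 22 genes were called for the mean of both guides, guide 1, guide 2 and between guides. Orc6 lost its call for the mean of both guides with the replicate block (limma adjusted p = 0.0505) and without a filter (limma adjusted p = 0.0533). The same held without guide 1 replicate 2, guide 2 replicate 1 or 2, or control replicate 1 or 2. There the limma adjusted p lay between 0.0544 and 0.146, and with the knockouts as 1 group it was 0.203. Mcm6 lost this call without control replicate 2, and Prim2 and Rpa2 without control replicate 1 (limma adjusted p = 0.0660, 0.0575 and 0.0574). Without read totals, counting error is unknown.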
